A study of Homo sapiens with 6 samples.

Results

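Semaphorins, plexins and neuropilins are a family of guidance ligands and their receptors, and 31 of the 21619 genes counted belong to it here. They were taken by symbol, as the names beginning SEMA3 to SEMA7, PLXNA, PLXNB, PLXNC or PLXND, plus NRP1 and NRP2, without hyphenated names. This gave 20 semaphorins, 9 plexins and 2 neuropilins. The rule used symbols only, but it was set with earlier results of these data known.

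Semaphorins are signals that share a sema domain. Those of class 3 are secreted, those of classes 4, 5 and 6 span the membrane, and SEMA7A is held to it by a lipid (GPI) anchor. Plexins are their transmembrane receptors, whose inner part acts on small GTPases of the Ras and Rap kind and so on the cytoskeleton and on adhesion. Neuropilins have only a short inner tail: they bind most class 3 semaphorins beside a plexin, and they also bind vascular endothelial growth factors. First known from the steering of axons, the family is also studied in carcinoma cells for its part in migration, invasion and the growth of blood vessels.

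The cells were of the line MDA-MB-231, from a triple-negative carcinoma of the human breast, engineered to carry ribosomal protein L10a fused to EGFP. Beads with an antibody to GFP pulled down the tagged ribosomes, and the polyadenylated RNA that came with them was sequenced, a method called translating ribosome affinity purification (TRAP). Cells of all groups had been kept in 0.2% serum for 24 h. Untreated cells then received neither factor, lower-dose cells received 30 ng/mL of the chemokine CXCL12 with 10 ng/mL of the growth factor IGF1, and higher-dose cells received 300 ng/mL CXCL12 with 100 ng/mL IGF1, for 6 h. Each group had 2 libraries, lettered a and b and labelled as biological replicates. All came from 1 cell line, and the sources used here do not say whether the tagged cells were 1 clone. CXCL12 and IGF1 were always added jointly, so what each did cannot be told apart, and only pull-down RNA was analysed here. A change may therefore be in an mRNA's abundance, in its association with ribosomes or in its recovery, and in bulk RNA fewer cells with an mRNA and less of it per cell cannot be told apart.

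The libraries held 26255079 to 30280322 reads on genes. Levels below are in CPM, that is, reads scaled to a common library size. All 13548 genes with enough reads were tested in 1 edgeR quasi-likelihood fit, with Benjamini-Hochberg adjustment over them and a threshold of 0.05 for a call. The biological coefficient of variation between libraries of a group was 1.79%, so small changes could be called, and the p-values measure only the spread between these libraries. The line's defining markers VIM, CD44, EGFR, AXL and MSN summed to 7051 to 7191 CPM in untreated libraries, 6092 to 6201 at the lower dose and 5425 to 5482 at the higher dose. All 5 fell at both doses, against 15.9% of all genes at the lower dose and 28.2% at the higher dose. Of 6 genes listed as low or absent in this line, ESR1, PGR and KRT5 had 0 to 5 reads a library and CDH1 2 to 13, while EPCAM had 319 to 393 and GATA3 247 to 319; the 6 summed to 22.2 to 22.9 CPM untreated, 24.8 to 24.9 at the lower dose and 22.0 to 24.1 at the higher dose. The 6 endothelial markers summed to 3.76 to 4.11, 3.64 to 3.74 and 2.94 to 3.05 CPM in the same order, with CDH5 at 0 reads. The 6 leukocyte markers summed to 14.5 to 17.0, 11.2 to 13.1 and 8.98 to 10.1 CPM, mostly CD14, with CD3E at 0 reads. The 6 neuron and glia markers summed to 131 to 132, 119 to 121 and 92.1 to 96.0 CPM, mostly MBP, with SOX10 at 0 reads. The sums of the line's defining markers and of these 3 lists were lower at each dose, as were many of the mRNAs described here, and their part in the results was not tested.

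Most of the family's mRNAs were lower in the pull-down after treatment. At the higher dose, 18 of the 29 members tested fell (62.1%) and 1 rose, against 28.2% of all genes that fell and 28.1% that rose. At the lower dose 12 fell (41.4%) and none rose, against 15.9% and 16.7% of all genes. With a correction for transcript length and GC content, described further on, the lower-dose count was 9 that fell and 2 that rose, against 16.0% and 15.1% of all genes. Between the doses 10 members were lower at the higher dose (34.5%) and 2 were higher, against 17.6% and 16.4% of all genes. This count was 6 lower and 0 higher without lower dose a, and 5 lower and 0 higher with DESeq2, which gave no adjusted p for 10 members there. The median log2 fold change of the members was −0.35 at the higher dose and −0.18 at the lower dose, both against untreated cells, and that of all genes was −0.00 in each. By role, 8 of the 11 plexins and neuropilins fell at the higher dose and none rose, while 10 of the 18 semaphorins tested fell and 1, SEMA7A, rose. The members not tested were SEMA4A, with 1 read in 1 lower-dose library, and SEMA5B, with none in any library.

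**Figure D1:**
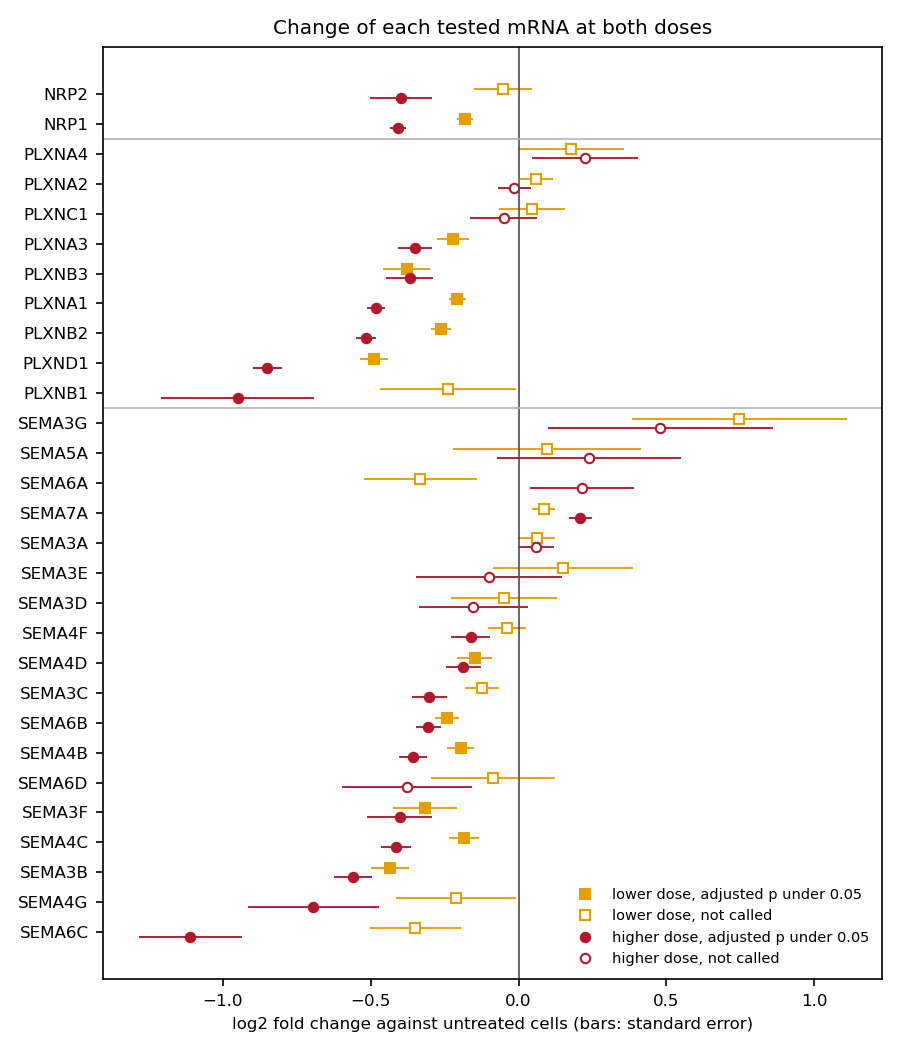
Log2 fold change against untreated cells (horizontal axis, bars show the standard error) of the 29 mRNAs tested, at the lower dose (squares) and the higher dose (circles). Filled symbols passed the edgeR test; 12 are filled at the lower dose, all left of 0, and 19 at the higher dose, of which only SEMA7A lies right of 0.

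Per length of transcript, the family was led by receptors. RPKM, which is CPM per kilobase of transcript and can be compared between genes, was 72.5 ± 1.3 in untreated cells for NRP1, 34.2 for PLXNA1 and 23.3 for PLXNB2. The leading semaphorins were SEMA7A at 19.8, SEMA6B at 15.7, SEMA4B at 12.6, SEMA4C at 11.8 and SEMA3B at 8.72 RPKM. PLXND1 followed at 7.68, SEMA3C at 5.43, SEMA4F at 4.90 and SEMA4D at 4.68. SEMA3A (3.01) and PLXNA3 (2.92) overlapped between libraries, as did PLXNB3 (2.61) and PLXNA2 (2.55), so their order is not set by these data. Below them came SEMA3F at 2.02, NRP2 at 1.27 and PLXNC1 at 0.860 RPKM, and the other members lay lower still. Summed over their genes, plexins and neuropilins gave 148, 128 and 109 RPKM in untreated, lower-dose and higher-dose cells, and semaphorins gave 91.2, 83.2 and 79.8. Both sums were thus lower at each step of dose in means of 2 libraries.

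**Figure D2:**
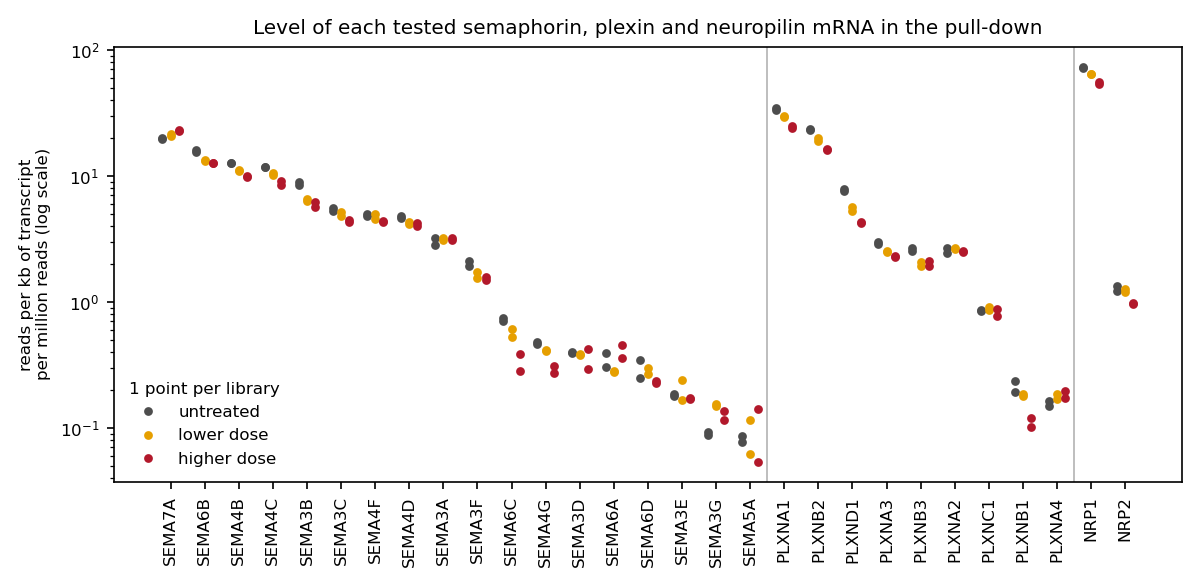
Level of each mRNA tested, in RPKM on a log scale, with 1 point per library, for semaphorins (left), plexins (middle) and neuropilins (right), each sorted by untreated level. NRP1 is the highest at 72.5 in untreated cells, and the points of SEMA7A are ordered untreated, lower dose, higher dose from low to high.

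The RefSeq start sites of 27 members were matched by symbol. The letters of a GC box (GGGCGG, either strand), the binding motif of Sp1-type factors typical of promoters without a TATA box, stood in the 250 bases before the start of 18 of these 27, against 42.3% of 27305 promoters. The TATA box letters TATAAA stood in none of the 27, against 11.1% of all. The AP-1 letters TGANTCA stood in 1, PLXNC1, against 6.60%, the E-box CACGTG in 3, SEMA3E, SEMA4D and SEMA6D, against 6.49%, and the FOXO core GTAAACA in none, against 2.98%. Median GC content was 64.4% over the members' promoters and 58.0% over all. The 27305 promoters include those of genes not tested here, so they are not matched to the members in expression. Those of 3 members are shown as examples, the one of SEMA7A, the only member that rose, and those of SEMA3B and PLXNA3, which fell; they are the 120 bases before the RefSeq start in build GRCh38.p14, 5′ to 3′ on the gene's strand, with GC boxes in capitals.
SEMA7A, chr15:74433959-74434078, minus strand: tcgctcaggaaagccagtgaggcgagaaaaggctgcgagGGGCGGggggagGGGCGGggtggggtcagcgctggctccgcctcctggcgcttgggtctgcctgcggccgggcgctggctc
SEMA3B, chr3:50272999-50273118, plus strand: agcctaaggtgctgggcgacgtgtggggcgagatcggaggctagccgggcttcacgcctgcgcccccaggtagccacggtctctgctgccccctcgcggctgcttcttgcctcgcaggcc
PLXNA3, chrX:154458161-154458280, plus strand: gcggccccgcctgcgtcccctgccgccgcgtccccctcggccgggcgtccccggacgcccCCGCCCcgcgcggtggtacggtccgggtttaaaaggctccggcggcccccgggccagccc
The mRNA that rose and one of those that fell thus both had this motif near the RefSeq start, and the other that fell had none in this window. A match of letters is a description and was not tested as a site.

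Among the secreted class 3 ligands, 3 of 7 fell at the higher dose and none rose, against 28.2% and 28.1% of all genes. SEMA3B, studied as a tumour suppressor, had 26.6 and 24.9 CPM in untreated libraries, 18.8 and 19.3 at the lower dose and 18.2 and 16.7 at the higher dose. Every treated library lay below both untreated ones, and the doses lay close to each other. Its log2 fold change was −0.56 ± 0.07 at the higher dose (adjusted p = 1.02e-10, edgeR) and −0.43 ± 0.06 at the lower (adjusted p = 2.01e-07), and the doses did not differ by the test (−0.13 ± 0.07, adjusted p = 0.163). SEMA3C, which signals through both neuropilins, had 27.3 and 28.9, 26.7 and 24.9, and 23.2 and 22.5 CPM in the same order. The higher-dose pair lay below all other libraries, with a change of −0.30 ± 0.06 on the log2 scale against untreated cells (adjusted p = 2.06e-05, edgeR) and −0.18 ± 0.06 against the lower dose (adjusted p = 0.0183). The difference between doses was lost with DESeq2 (adjusted p = 0.154), without lower dose a (0.225) and without higher dose b (0.147). SEMA3F, the classic ligand of NRP2, had 7.34 and 8.05 CPM untreated, 5.85 and 6.54 at the lower dose and 6.00 and 5.69 at the higher dose. Treated libraries lay below both untreated ones, and the log2 fold change was −0.40 ± 0.11 at the higher dose (adjusted p = 0.00146, edgeR) and −0.32 ± 0.11 at the lower (adjusted p = 0.0185); the lower-dose call was lost with DESeq2 (adjusted p = 0.181), with the length and GC correction (0.0653; 0.0698 with the replicate block as well) and without untreated b (0.175) or lower dose a (0.195).

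The other class 3 mRNAs gave no call. SEMA3A, the founding secreted ligand, which acts through NRP1 and class A plexins, had 23.1 and 26.4 CPM untreated, 26.6 and 25.3 at the lower dose and 25.4 and 26.4 at the higher dose. The groups overlapped, and the higher-dose log2 fold change was 0.06 ± 0.06 (adjusted p = 0.427, edgeR). SEMA3E, which binds PLXND1 without a neuropilin, had only 34 to 50 reads a library, with −0.10 ± 0.25 at the higher dose (adjusted p = 0.755). SEMA3D had 52 to 75 reads a library and −0.15 ± 0.18 (adjusted p = 0.505). SEMA3G had 12 and 13 reads untreated, 21 and 22 at the lower dose and 16 and 19 at the higher dose. Its treated libraries all lay above both untreated ones, but at these counts neither change passed the test (lower dose 0.75 ± 0.36, adjusted p = 0.111; higher dose 0.48 ± 0.38, adjusted p = 0.293).

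All 5 class 4 mRNAs tested fell at the higher dose, and 3 of them at the lower dose, against 28.2% and 15.9% of all genes. SEMA4B had 47.9 and 48.3 CPM untreated, 42.5 and 41.5 at the lower dose and 37.0 and 38.2 at the higher dose. SEMA4C, a ligand of PLXNB2, had 41.6 and 41.9, 37.3 and 36.1, and 30.2 and 32.4 CPM. Both mRNAs stepped down without overlap between any groups. The higher-dose log2 fold change was −0.36 ± 0.05 for SEMA4B (adjusted p = 4.36e-09, edgeR) and −0.41 ± 0.05 for SEMA4C (adjusted p = 6.71e-10), and both were also lower at the higher than at the lower dose (−0.16 ± 0.05, adjusted p = 0.00713, and −0.23 ± 0.05, adjusted p = 0.000392). With DESeq2 the SEMA4C fall at the lower dose (−0.18 ± 0.05, adjusted p = 0.00264 by edgeR) had an adjusted p of 0.0535, and the SEMA4B difference between doses was lost with DESeq2 (0.0848), without lower dose a (0.0652) and without higher dose a (0.0842).

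SEMA4D, the ligand of PLXNB1, and SEMA4F changed less. SEMA4D had 26.1 and 27.1 CPM untreated, 24.5 and 23.6 at the lower dose and 24.2 and 22.7 at the higher dose, and SEMA4F had 21.5 and 20.7, 19.6 and 21.4, and 18.7 and 19.0 CPM. The higher-dose values lay below the untreated ones for both, with log2 fold changes of −0.19 ± 0.06 for SEMA4D (adjusted p = 0.00647, edgeR) and −0.16 ± 0.07 for SEMA4F (adjusted p = 0.0337). Neither call held throughout: with DESeq2 the adjusted p was 0.0839 for SEMA4D and 0.188 for SEMA4F. The SEMA4D call was lost without untreated b (0.0630) or higher dose b (0.114), and the SEMA4F call without untreated a (0.135), higher dose a (0.125) or higher dose b (0.0883). SEMA4D at the lower dose (−0.15 ± 0.06, adjusted p = 0.0466) lost its call without any 1 of the 4 libraries (0.0547 to 0.236). SEMA4G, a class 4 ligand with 32 to 60 reads a library, had 1.90 and 1.98 CPM untreated, 1.70 and 1.66 at the lower dose and 1.28 and 1.12 at the higher dose, a change of −0.69 ± 0.22 on the log2 scale at the higher dose (adjusted p = 0.00624, edgeR; 0.0622 without higher dose b, 0.0950 with DESeq2). Its exons share 738 bases with MRPL43 on the opposite strand, and since the use of strand in counting is not given, reads of the 2 genes may be mixed.

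Class 5 was all but absent: SEMA5A, a ligand of PLXNB3, had 24 and 31 reads untreated, 39 and 21 at the lower dose and 47 and 18 at the higher dose. The higher-dose libraries lay on either side of the untreated ones, and its 0.24 ± 0.31 did not pass the test (adjusted p = 0.541, edgeR). Without higher dose b it was 0.78 (adjusted p = 0.0376), so 1 library decides this value.

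Class 6 held the mRNA with the largest fall in the family, SEMA6C. SEMA6C had 3.69 and 3.92 CPM untreated, 2.77 and 3.22 at the lower dose and 1.49 and 2.04 at the higher dose. The groups did not overlap, and at the higher dose it fell by 53.7% (log2 fold change −1.11 ± 0.17, adjusted p = 2.21e-07, edgeR), with 42 and 58 reads at the higher dose against 97 and 119 untreated. It was also lower at the higher than at the lower dose (−0.76 ± 0.18, adjusted p = 0.000745, edgeR), while its fall at the lower dose missed the threshold (−0.35 ± 0.15, adjusted p = 0.0738). For SEMA6C DESeq2 gave no adjusted p between the doses or at the lower dose against untreated. SEMA6B, the most abundant class 6 ligand and a partner of PLXNA4, had 61.1 and 64.0 CPM untreated, 53.3 and 52.6 at the lower dose and 50.7 and 50.6 at the higher dose. Its fall was −0.24 ± 0.04 at the lower dose (adjusted p = 5.91e-06, edgeR) and −0.31 ± 0.04 at the higher dose (adjusted p = 1.28e-08), with no called difference between doses (−0.06 ± 0.04, adjusted p = 0.281).

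SEMA6A, which binds PLXNA2 and PLXNA4, had 2.09 and 2.70 CPM untreated, 1.91 and 1.94 at the lower dose and 2.48 and 3.12 at the higher dose. The lower-dose pair lay below the untreated one and the higher-dose pair overlapped it; only the difference between doses passed (0.55 ± 0.18, adjusted p = 0.0167, edgeR), and it was lost without lower dose a (0.0712), lower dose b (0.0660) or higher dose b (0.263). SEMA6D, a ligand of PLXNA1, had 39 to 64 reads a library and −0.38 ± 0.22 at the higher dose (adjusted p = 0.142; 0.0493 without untreated a).

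SEMA7A, the GPI-anchored semaphorin, which binds PLXNC1 and also the integrin subunit ITGB1, was the only member that rose. It had 67.5 and 66.1 CPM in untreated libraries, 69.8 and 72.0 at the lower dose and 77.8 and 76.6 at the higher dose. The 3 groups did not overlap, and the libraries were ordered by dose. The log2 fold change was 0.21 ± 0.04 at the higher dose (15.6% higher, adjusted p = 6.04e-06, edgeR) and 0.09 ± 0.04 at the lower (adjusted p = 0.0856), and the higher dose exceeded the lower (0.12 ± 0.04, adjusted p = 0.00879), though not with DESeq2 (adjusted p = 0.0864), without lower dose a (0.104) or without higher dose a (0.0801). In untreated cells SEMA7A made up 21.7% ± 0.5 of the summed semaphorin RPKM, then 25.2% ± 0.5 at the lower and 28.6% ± 0.3 at the higher dose (SD, n = 2 each). Set against PLXNB2 per length, SEMA7A had a ratio of 0.857 and 0.841 untreated, 1.10 and 1.06 at the lower dose and 1.4 and 1.41 at the higher dose. In RPKM it thus ranked below PLXNB2 in both untreated libraries and above it in all 4 treated ones. This crossing depends on the transcript lengths used, 3376 nt for SEMA7A and 6383 nt for PLXNB2. In CPM PLXNB2 was above SEMA7A in every library, at 105 and 103 at the higher dose. In RPKM SEMA7A ranked below PLXNA1 and above PLXNC1 and SEMA6B in every library. Of its receptors, PLXNC1 gave no call, and ITGB1, added here for its role as a SEMA7A receptor after its values were seen, fell by 0.43 ± 0.03 on the log2 scale at the higher dose (adjusted p = 1.43e-20, edgeR).

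**Figure D3:**
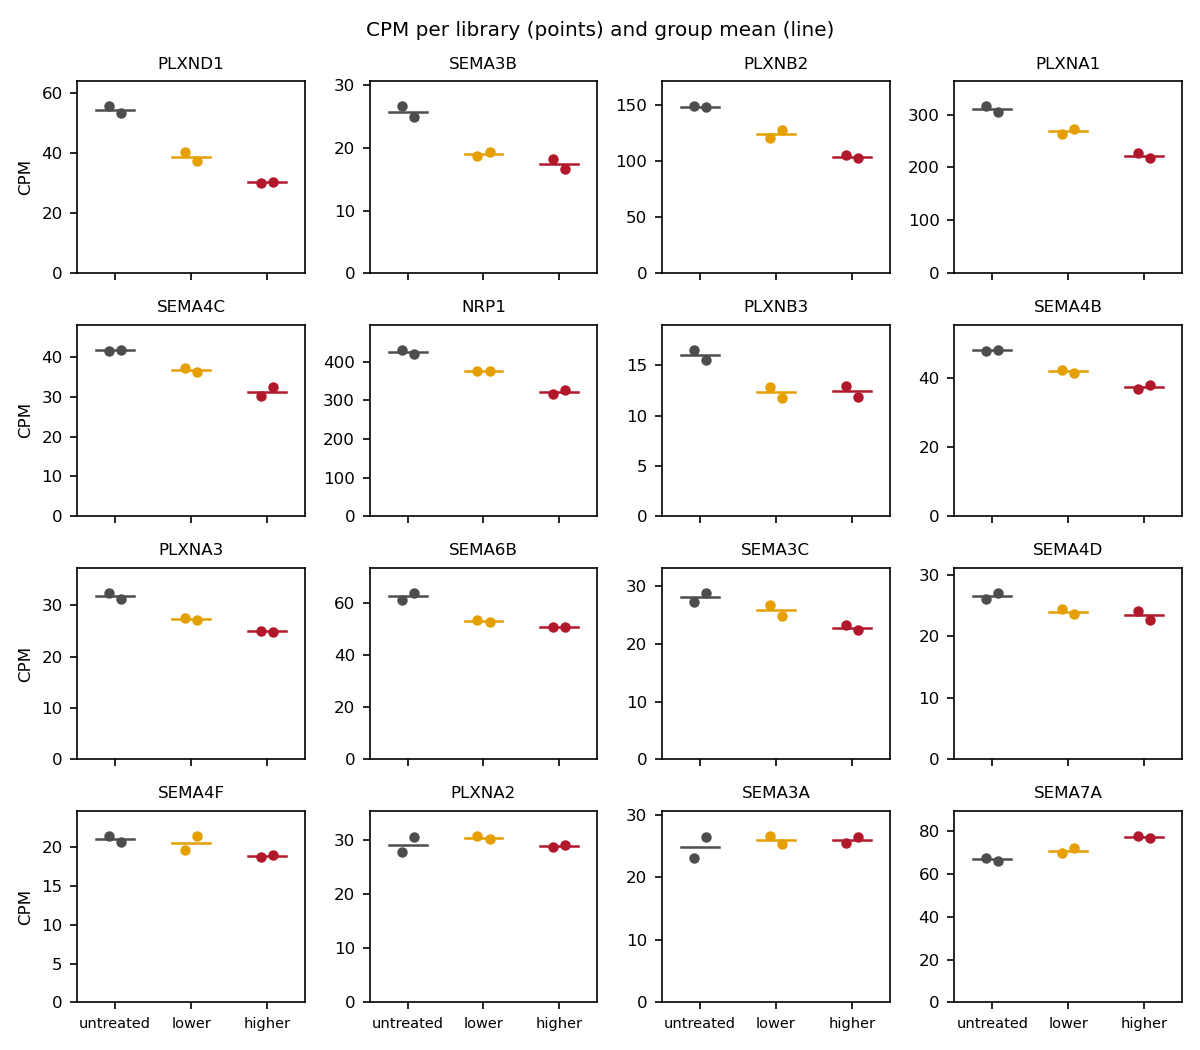
CPM of each library (points) and group mean (line) for the 16 members with a mean of at least 10 CPM, in untreated, lower-dose and higher-dose cells, each axis starting at 0. In this set 13 fell and SEMA7A rose at the higher dose, against 34% and 35% of all tested genes at that level. For PLXNA2 and SEMA3A both treated groups overlapped the untreated one.

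Among the class A plexins, the usual signalling partners of neuropilins, PLXNA1 and PLXNA3 fell and PLXNA2 and PLXNA4 gave no call. PLXNA1 had 315 and 305 CPM untreated, 264 and 273 at the lower dose and 227 and 217 at the higher dose. No groups overlapped: it fell by 28.4% at the higher dose (−0.48 ± 0.03, adjusted p = 1.9e-20, edgeR), after −0.21 ± 0.03 at the lower dose (adjusted p = 9.11e-08; −0.10 with the length and GC correction, adjusted p = 0.00386). Its share of the summed plexin RPKM was 45.9% ± 0.5, 47.0% ± 0.3 and 46.2% ± 0.6 in untreated, lower-dose and higher-dose cells (SD, n = 2 each), close to level while the mRNA fell. PLXNA3 had 32.4 and 31.1, 27.4 and 27.0, and 25.1 and 24.8 CPM, a change of −0.35 ± 0.06 on the log2 scale at the higher dose (adjusted p = 3.65e-07, edgeR) and of −0.22 ± 0.05 at the lower (adjusted p = 0.00114). With the length and GC correction these were −0.20 (adjusted p = 0.00209) and −0.12 (adjusted p = 0.101), so the lower-dose call was lost. Only 11 of its exon bases overlap another counted gene, LAGE3.

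PLXNA2 had 27.8 and 30.6 CPM untreated, 30.9 and 30.2 at the lower dose and 28.7 and 29.2 at the higher dose. Both treated groups overlapped the untreated one, with −0.01 ± 0.06 at the higher dose (adjusted p = 0.849, edgeR). This sign turned when the trend with transcript length and GC content was removed (0.13, adjusted p = 0.0433). The higher-dose pair lay below the lower-dose pair, but the difference was not called (−0.08 ± 0.06, adjusted p = 0.325, edgeR). PLXNA4 had 54 to 77 reads a library and 0.23 ± 0.18 at the higher dose (adjusted p = 0.292).

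All 3 class B plexins, receptors of class 4 semaphorins that can also associate with the receptor tyrosine kinases MET and ERBB2, fell at the higher dose. Of all genes 28.2% fell at this dose. PLXNB2 had 149 and 149 CPM untreated, 120 and 128 at the lower dose and 105 and 103 at the higher dose. It stepped down without overlap, to −0.52 ± 0.03 at the higher dose (adjusted p = 2.2e-19, edgeR) after −0.26 ± 0.03 at the lower (adjusted p = 5.83e-09; −0.17 with the length and GC correction, adjusted p = 2.0e-05). PLXNB3 had 16.6 and 15.5, 12.9 and 11.8, and 13.0 and 11.8 CPM. Here the doses overlapped, at −0.38 ± 0.08 (lower, adjusted p = 0.000115, edgeR) and −0.37 ± 0.08 (higher, adjusted p = 6.72e-05). PLXNB3 shares 1252 exon bases with SRPK3 on the same strand, so its reads may be split with that gene. PLXNB1, the receptor of SEMA4D, was scarce, with 37 and 52 reads untreated, 38 and 39 at the lower dose and 21 and 25 at the higher dose. The higher-dose pair lay below all others, a fall of 48.2% (−0.95 ± 0.26, adjusted p = 0.00149, edgeR), and the difference between doses (−0.71 ± 0.27, adjusted p = 0.0338) was lost without any 1 of its 4 libraries (0.0718 to 0.185).

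PLXND1, the receptor of SEMA3E known from blood vessel patterning, had the largest fall among members with at least 10 CPM. It had 55.5 and 53.5 CPM untreated, 40.3 and 37.5 at the lower dose and 30.1 and 30.3 at the higher dose. The 3 groups lay far apart compared with the gap inside each pair. It fell by 28.7% at the lower dose (−0.49 ± 0.05, adjusted p = 2.99e-12, edgeR) and by 44.5% at the higher dose (−0.85 ± 0.05, adjusted p = 1.94e-21), and the higher dose was lower than the lower dose (−0.36 ± 0.05, adjusted p = 1.23e-07). Its share of the plexin RPKM was 10.3% ± 0.1 untreated, 8.71% ± 0.59 at the lower dose and 8.04% ± 0.19 at the higher dose (SD, n = 2 each). PLXNC1, with 6.28 and 6.36 CPM untreated, 6.30 and 6.74 at the lower dose and 5.71 and 6.50 at the higher dose, gave no call (−0.05 ± 0.11 at the higher dose, adjusted p = 0.731).

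Both neuropilins fell at the higher dose, against 28.2% of all genes. NRP1 had 432 and 421 CPM untreated, 377 and 376 at the lower dose and 316 and 326 at the higher dose. Its groups did not overlap: the log2 fold change was −0.18 ± 0.03 at the lower dose (adjusted p = 5.07e-07, edgeR), −0.41 ± 0.03 at the higher dose (24.6% down, adjusted p = 1.09e-18) and −0.23 ± 0.03 between doses (adjusted p = 2.34e-09). NRP2 had 8.14 and 8.84, 8.49 and 7.92, and 6.49 and 6.43 CPM. Its lower-dose libraries overlapped the untreated ones (−0.05 ± 0.10, adjusted p = 0.728, edgeR), and its higher-dose libraries lay below all others (−0.40 ± 0.10 against untreated, adjusted p = 0.000904; −0.34 ± 0.10 against the lower dose, adjusted p = 0.00729). The difference between doses was lost with DESeq2 (0.106), without lower dose a (0.0809) and without higher dose b (0.0552). NRP1 carried 98.3% of the summed neuropilin RPKM in untreated and higher-dose cells and 98.1% at the lower dose. Antisense transcripts overlap exons of both neuropilins, of SEMA5A and of SEMA6A in GENCODE, so reads of these cannot be told apart without strand.

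The 19 members called at the higher dose fell into 4 patterns of dose. NRP1, PLXNA1, PLXNB2, PLXND1, SEMA4B and SEMA4C were called at both doses and between them, that is, lower at each step. Their lower-dose log2 fold change was 42.9% to 57.4% of that at the higher dose. PLXNA3, PLXNB3, SEMA3B, SEMA3F, SEMA4D and SEMA6B were called at both doses but not between them, and for these it was 63.3% to 103%. High values follow in part from the pattern itself, which takes members whose doses did not differ by the test. NRP2, PLXNB1, SEMA3C, SEMA6C and SEMA7A were called at the higher dose and between doses, and SEMA4F and SEMA4G at the higher dose alone. A miss of the threshold at 1 step does not show that the mRNA stayed level there.

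Transcript length and abundance differ between these genes and the rest, so the counts were also read within classes. Of the 16 members with a mean of at least 10 CPM, 13 fell at the higher dose (81.2%), against 34.0% of the 9263 genes tested in that class. Of the 13 members under 10 CPM, 5 fell (38.5%), against 15.7% of 4285 genes. Of the 13 members with a transcript of 6000 nt or less, 11 fell (84.6%), against 27.8% of such genes, and of the 16 longer ones 7 fell (43.8%), against 40.5% of 1968 genes. Among long transcripts the share of falls at this dose, over all 16 members together, was thus close to that of all genes. All 7 that fell were receptors: NRP2, PLXNA1, PLXNA3, PLXNB1, PLXNB2, PLXNB3 and PLXND1. The long receptors PLXNA2, PLXNA4 and PLXNC1 gave no call. Nor did the long semaphorins SEMA3A, SEMA3D, SEMA3E, SEMA5A, SEMA6A and SEMA6D, of which all but SEMA3A had at most 89 reads a library. The excess of falls was larger among the shorter members, which are 12 semaphorins and NRP1. None of the 16 longer members rose at the higher dose, against 17.8% of such genes, and their median log2 fold change was −0.25, against −0.10. At the lower dose 5 of the 16 fell (31.2%) and none rose, against 23.4% and 8.89% of such genes.

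After removal of each library's trend with transcript length and GC content, 16 members were still lower at the higher dose and 2 were higher, with a median log2 fold change of −0.26, against 28.8% of all genes lower and 26.0% higher in the same fit. The corrected higher-dose values were −0.72 for PLXND1, −0.54 for SEMA3B, −0.39 for PLXNB2, −0.34 for NRP1 and −0.33 for PLXNA1, with 0.27 for SEMA7A. SEMA4D (−0.08, adjusted p = 0.234, edgeR) and SEMA4F (−0.08, adjusted p = 0.320) lost their higher-dose calls. PLXNA3 (−0.12, adjusted p = 0.101), SEMA3F (−0.25, adjusted p = 0.0653) and SEMA4D (−0.09, adjusted p = 0.257) lost their lower-dose calls. PLXNA2 gained one as a rise at both doses (0.16 at the lower dose, adjusted p = 0.0231), and SEMA7A gained one at the lower dose (0.14, adjusted p = 0.00380).

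**Figure D4:**
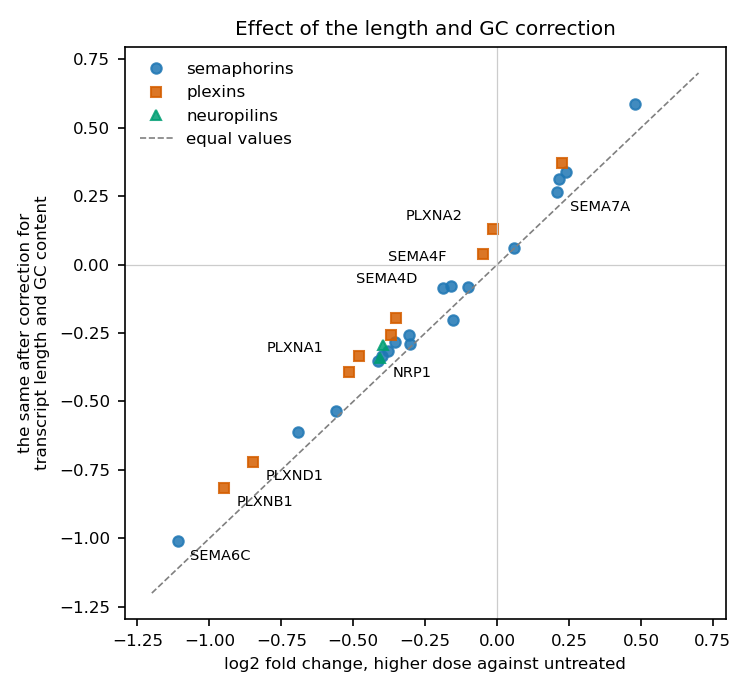
Log2 fold change of the 29 members at the higher dose against untreated cells, as fitted (horizontal axis) and after removing each library's trend with transcript length and GC content (vertical axis); the dashed line marks equal values. Most points lie above the line, PLXNA1 at −0.48 and −0.33 for example, and PLXNA2 crosses 0, to 0.13.

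Genes that work with the family went both ways. Of 42 tested partners and effectors of semaphorin receptors, 10 rose and 17 fell at the higher dose, with a median log2 fold change of −0.04. Among all genes tested, 28.1% rose and 28.2% fell. Those with the largest falls were DPYSL2 (−0.89 ± 0.04, adjusted p = 7.25e-28, edgeR), the CRMP protein that relays SEMA3A signals to microtubules, KDR, the VEGF receptor that pairs with NRP1 (−0.81 ± 0.13), and the phosphatase PTPRJ (−0.65 ± 0.03). PAK1, a kinase downstream of RAC (0.39 ± 0.06), RAP1A, a GTPase that plexins switch off (0.36 ± 0.05), and RHOD (0.28 ± 0.10, adjusted p = 0.0169) rose most.

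The 7 proteases that cut semaphorins were closer to the family's own pattern. At the higher dose 6 fell and 1 rose, against 28.2% and 28.1% of all genes, and their median was −0.38. PCSK6, a convertase of the furin kind, fell by 0.87 ± 0.15 on the log2 scale (adjusted p = 3.07e-06, edgeR). MMP14, a membrane metalloprotease that sheds SEMA4D, had 705 and 716 CPM untreated, 571 and 583 at the lower dose and 505 and 479 at the higher dose, a change of −0.53 ± 0.03. ADAM10 (−0.43 ± 0.04) fell as well, and PCSK7 (0.19 ± 0.05) rose.

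Other ligands of neuropilins went both ways at the higher dose, with 4 of 7 up and 3 down, against 28.1% and 28.2% of all genes. VEGFA, the endothelial growth factor that competes with SEMA3A for NRP1, had 168 and 168 CPM untreated, 199 and 198 at the lower dose and 245 and 248 at the higher dose. It was higher at each step (0.24 ± 0.03 at the lower dose, adjusted p = 3.22e-09, edgeR; 0.55 ± 0.03 at the higher, adjusted p = 3.99e-23) while NRP1 was lower at each. VEGFB (0.35 ± 0.04) and VEGFC (0.16 ± 0.05) also rose, and PDGFB (−1.05 ± 0.20), PGF (−0.29 ± 0.04) and TGFB1 (−0.23 ± 0.03) fell.

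The other guidance families were mixed. Of 12 netrin, slit, RGM and FLRT genes and receptors tested, 3 rose and 5 fell at the higher dose. Upward they were led by FLRT3 (1.02 ± 0.38, with only 8 to 25 reads a library), RGMB (0.66 ± 0.03) and ROBO3 (0.34 ± 0.07). Downward they were led by NTN4 (−0.75 ± 0.05), NEO1 (−0.73 ± 0.06) and ROBO4 (−0.65 ± 0.04). Of 18 ephrins and Eph receptors, 3 rose and 7 fell. The rises were led by EFNB2 (0.63 ± 0.04), EPHA5 (0.43 ± 0.19, adjusted p = 0.0461, edgeR) and EFNB1 (0.33 ± 0.10). The falls were led by EPHA7 (−0.89 ± 0.31), EFNB3 (−0.67 ± 0.26) and EPHA4 (−0.58 ± 0.08). EPHA7 had only 14 to 43 reads a library and EFNB3 25 to 44. Of all genes tested, 28.2% fell and 28.1% rose. The shares of falls in these lists, 5 of 12 and 7 of 18, are above that of all genes and below the 18 of 29 in the family. These differences were not tested.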

How the data were processed

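TRAP RNA-seq of 6 libraries was analysed from the whole-number read counts per gene symbol that the authors deposited. Per the submitters' processing notes, CASAVA 1.8.1, TopHat 1.4.0, HTSeq and build hg19 were used; not given in the sources used here are the annotation, the counting mode and the use of strand. HTSeq's summary lines (9.40% to 10.2% of reads) were left out.

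The test was the quasi-likelihood F test of edgeR 4.0.16 under R 4.3.3 (with TMM factors of 0.997 to 1.003, filterByExpr, robust quasi-likelihood fit of 3 group means on all 6 libraries, 3 residual degrees of freedom, two-sided, Benjamini-Hochberg threshold 0.05), checked on simulated data. In the simulated data far fewer genes changed than were called here, so they do not check the test in that setting. TMM takes most genes as unchanged, while 7626 of 13548 were called at the higher dose against untreated. Changes are relative to other genes. Standard errors were derived from F and the log2 fold change. The libraries of a group differed by more than counting noise (chi-square of 1.52 to 1.98 per degree of freedom) and were counted as 2 samples. A level of 0.0991 to 0.114 CPM equals 3 reads, the limit that a count of 0 allows, for counting error only.

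Transcript lengths (longest principal transcript, GENCODE v29) were found for 88.3% of tested genes and served RPKM and a spline correction for length and GC content. Promoters are RefSeq's. Those shown are of called members with at least 10 CPM that passed a check of the start, all that rose and the 2 largest falls. In this check, bases just after the RefSeq start lay in a GENCODE transcript of the gene and those before it did not. This does not show that a transcript starts there, since the edge of an inner exon would pass as well. From each list of related genes, the 3 largest called changes at the higher dose in each direction are named, and every family member is named. Members and lists were chosen with earlier results of these data known. Alternatives were DESeq2 1.42.0, RLE factors, other filters, the replicate letter as a block, the length correction, 4-library fits and leaving out each library.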

Additional observations from a re-analysis of the deposited data

How the results depend on the processing

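RLE factors, both other filters and the 4-library fits left the members called at 12 for the lower dose against untreated, 19 for the higher dose against untreated and 12 for the higher against the lower dose. With the replicate letter as a replicate block these counts were also 12, 19 and 12, no member's call changed, and all genes called were 4320, 7561 and 4516. The labels do not say whether a letter marks a shared day or culture. The a minus b deviations of 2 groups correlated at −0.04, 0.00 and −0.03. They include counting noise, so these values cannot decide it. DESeq2 called 2563, 5643 and 2759 genes, against 4418, 7626 and 4612 with edgeR, and 9, 16 and 5 members, with no adjusted p for 10 members in the first comparison, 1 in the second and 10 in the third; the cause of its lower counts was not tested. Leaving out 1 library gave 10 to 11, 17 to 19 and 6 to 10 members (6 without lower dose a); where this leaves a group with 1 library, that library is assumed to vary like the others. With the length and GC correction PLXNA2 turned to 0.13 at the higher dose, alone and with the replicate block. SEMA3G and SEMA5A had 12 to 47 reads a library, which left standard errors of 0.38 and 0.31 on their log2 fold changes at the higher dose.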
